A study of Mus musculus with 15 samples.

Results

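The HoxB cluster is a run of 10 homeobox genes on mouse chromosome 11, read here in the order Hoxb13, Hoxb9, Hoxb8, Hoxb7, Hoxb6, Hoxb5, Hoxb4, Hoxb3, Hoxb2 and Hoxb1, all on the plus strand. Its DNA methylation was measured in sorted mouse bone marrow progenitors by reduced representation bisulfite sequencing, which reads CpG-rich restriction fragments and scores each CpG by the share of reads that bisulfite left unconverted. Members were the CpGs inside each gene and in the 5 kb before its start, with the reads of both strands added. Of 748 such CpGs with any read, 118 had at least 10 reads in every one of the 15 libraries, among 241527 autosomal CpGs in all that passed the same minimum. They gave 28 CpGs at Hoxb9, 21 at Hoxb7, 18 each at Hoxb3 and Hoxb2, 17 at Hoxb8, 16 at Hoxb4, 14 at Hoxb5, 9 at Hoxb13, 3 at Hoxb1 and 0 at Hoxb6. The 13 CpGs that lie in both Hoxb8 and Hoxb7 and the 13 in both Hoxb4 and Hoxb3 count under both genes of their pair. In 1 kb windows of at least 3 CpGs, here called regions, the cluster had 19 of 29251 regions, which held 105 of the 118 CpGs. A region is named by its gene and by the distance of its CpGs from the gene start.

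All mice were on a C57BL/6 background. Double mutant cells (Mx1-cre+;Dnmt3a-/-;Idh2 R140Q, 3 libraries) were malignant haematopoietic stem and progenitor cells, collected in the surface gate of megakaryocyte-erythroid progenitors (MEP), that is Lin- cKit+ Sca1- CD34- Cd16/32-. Dnmt3a knockout cells (Mx1-cre+;Dnmt3a-/-), Idh2 mutant cells (Mx1-cre-;Dnmt3af/f;Idh2 R140Q) and wild type cells (Mx1-cre+;Dnmt3af/f) were each collected in that MEP gate and as granulocyte-macrophage progenitors (GMP, Lin- cKit+ Sca1- CD34+ Cd16/32+), with 2 libraries for each genotype and gate. The Idh2 mutant libraries therefore lack the Cre that the other groups carry, and no group of non-malignant double mutant cells was at hand. Mx1-cre is a Cre transgene under an interferon-responsive promoter that is active in blood cells and also in other tissues. The libraries are called biological replicates, but separate animals are not stated, so p-values measure the spread between these libraries. No RNA was measured in them, so cell identity rests on the sort.

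Hox genes encode transcription factors that give positional identity along the body axis, and their order on the chromosome follows the order in which they are expressed from head to tail. In blood, genes of the HoxA and HoxB clusters are active in stem and early progenitor cells and are shut down as cells mature. Dnmt3a places new methylation on DNA and is often mutated in human acute myeloid leukaemia, as is Idh2, whose R140Q form makes 2-hydroxyglutarate, an inhibitor of the TET enzymes that start the removal of methylation.

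The stretches on which the results turn are printed from the mm9 reference (NCBIM37), plus strand, in lower case with the CpGs measured in all 15 libraries in capitals. They show how few positions carry each value. The sequence before Hoxb13 is the stretch at which the single mutants differed from wild type. Those of Hoxb9, Hoxb8 and Hoxb2 are from regions called higher in the double mutant than in all 3 other MEP groups, and the one before Hoxb5 was its site of loss.
Hoxb13 start, chr11:96055484-96055592: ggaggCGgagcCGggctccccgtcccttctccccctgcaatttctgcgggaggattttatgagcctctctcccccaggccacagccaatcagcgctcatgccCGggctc
Hoxb9 upstream, chr11:96131235-96131341: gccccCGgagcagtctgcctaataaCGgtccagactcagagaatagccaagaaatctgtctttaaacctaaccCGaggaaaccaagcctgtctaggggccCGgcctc
Hoxb9 first coding exon, chr11:96133224-96133370: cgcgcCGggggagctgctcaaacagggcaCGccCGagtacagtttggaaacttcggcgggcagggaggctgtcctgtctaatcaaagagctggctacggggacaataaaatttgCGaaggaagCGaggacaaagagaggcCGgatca
Hoxb8 first coding exon, chr11:96144489-96144528: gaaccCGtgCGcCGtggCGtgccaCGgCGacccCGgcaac
Hoxb5 upstream, chr11:96163369-96163493: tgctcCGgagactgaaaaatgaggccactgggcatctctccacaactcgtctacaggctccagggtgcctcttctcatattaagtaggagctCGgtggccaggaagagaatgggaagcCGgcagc
Hoxb2 first coding exon, chr11:96213335-96213488: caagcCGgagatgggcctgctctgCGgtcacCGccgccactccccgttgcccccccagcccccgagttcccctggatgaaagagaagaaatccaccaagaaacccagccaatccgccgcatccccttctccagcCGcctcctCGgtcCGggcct

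Each library held 19306705 to 35204906 reads over listed cytosines, and a HoxB region had 36 to 818 reads per library, with a median of 178. Over listed cytosines, double mutant libraries held 28001420 to 31657332 reads and wild type libraries 30751438 to 35204906. All single mutant libraries held fewer, with 20541812 to 26086791 in Dnmt3a knockout and 19306705 to 24587340 in Idh2 mutant libraries. The part of this split in the differences between single mutant and double mutant or wild type libraries was not tested. Of the region values, 37 were 0%, on 44 to 535 reads, and a count of 0 allows a level of up to 6.82% at the fewest and 0.561% at the most of these reads, for counting error only. Wild type libraries differed from all others in sex chromosome reads. The X share was 1.17% to 1.47% of autosomal reads in double mutant, Dnmt3a knockout and Idh2 mutant libraries, against 2.21% to 2.25% in wild type libraries. Y reads per 1000000 autosomal reads were 357 to 386 in double mutant libraries and 199 to 303 in single mutant libraries, against 54.0 to 57.5 in wild type libraries. A difference from wild type therefore cannot be told apart from this one. Double mutant libraries overlapped the single mutant ones in X share but lay above all of them in Y reads. The share of reads counted as methylated on mitochondrial CpGs, a rough gauge of incomplete conversion, was 0.280% to 2.77% in the double mutant and single mutant libraries and 1.62% to 3.27% in wild type libraries.

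The cluster was more methylated in double mutant cells than in any other group. The mean level over the 118 CpGs was 23.2% ± 2.88 in double mutant cells (SD, n = 3), 9.65% ± 0.478 in Dnmt3a knockout MEP, 12.4% ± 1.49 in Idh2 mutant MEP and 12.3% ± 0.592 in wild type MEP (SD, n = 2 each). It was 9.42% in Dnmt3a knockout GMP, 12.3% in Idh2 mutant GMP and 13.4% in wild type GMP. The 3 double mutant libraries, at 20.4% to 26.2%, lay above the other 12, at 8.46% to 14.5%, and these other groups lay close together. Over all 241527 CpGs the double mutant mean was 42.3%, with the other groups at 38.2% to 40.7%.

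The excess lay mainly in CpGs that were nearly free of methylation elsewhere, which were 98 of the 118. Against each other MEP group, the CpGs between 20% and 80% gained more on average. In the 98 HoxB CpGs whose mean over all 15 libraries was under 20%, the double mutant libraries stood at 11% to 16.8%, against group means of 1.71% to 3.2% in the other 6 groups. In all 128544 CpGs of that class the means were 4.97% in double mutant cells and 1.43% to 2.62% in the others. The 14 CpGs between 20% and 80% averaged 60.6% in double mutant cells, 34.8% in Dnmt3a knockout MEP, 46.4% in Idh2 mutant MEP and 45.4% in wild type MEP. The 6 CpGs over 80% averaged 94.6% in double mutant cells, 80.5% in Dnmt3a knockout MEP, 82.5% in Idh2 mutant MEP and 94.3% in wild type MEP, so that in this class the double mutant lay beside wild type. At 35 of the 118 CpGs all 3 double mutant libraries lay above all 12 others, as they did at 6.37% of all CpGs, and at 2 they lay below, against 1.47% of all.

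**Figure D1:**
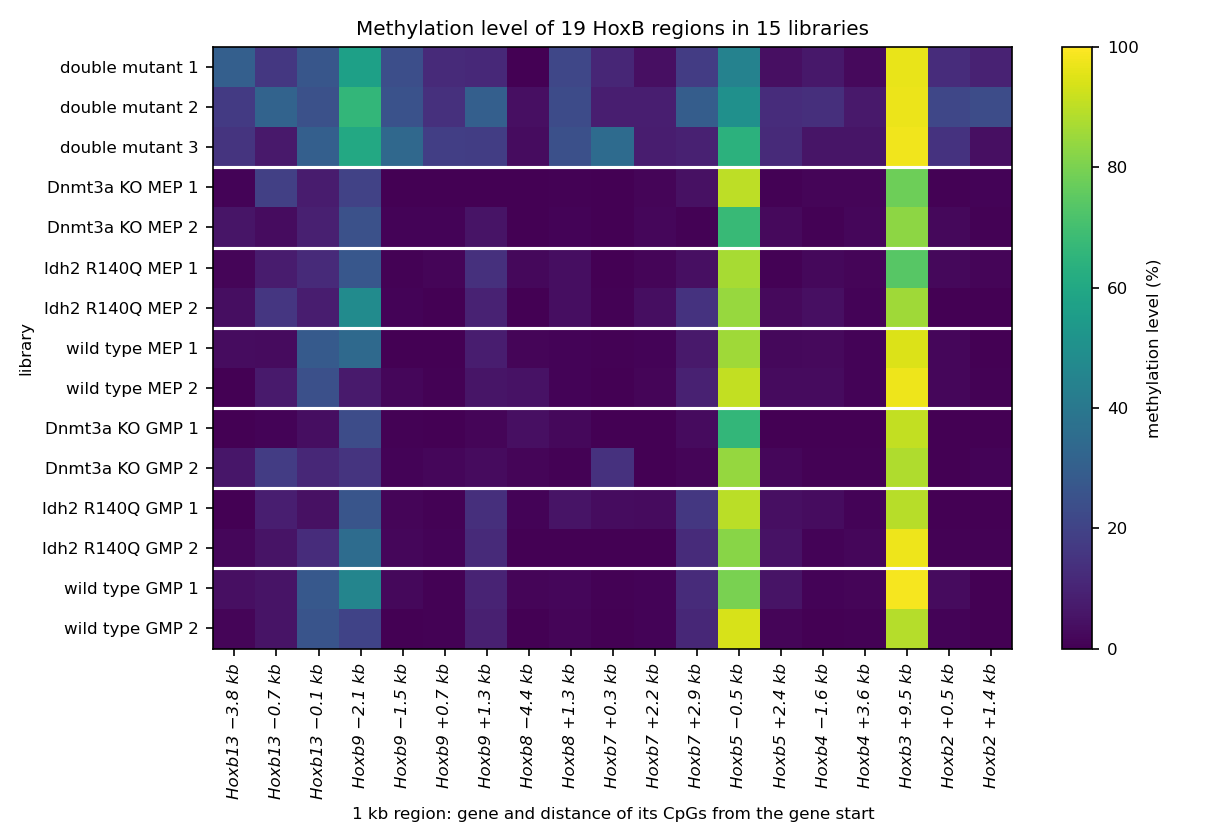
Methylation level in percent (colour) of the 19 HoxB regions (columns, in order along the chromosome) in each of the 15 libraries (rows, grouped by genotype and gate). The 3 double mutant rows are brighter than the others in most columns, and the column before Hoxb5 is the one where they are darker, at 44.4% to 64.3%.

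In double mutant cells against wild type MEP, 7 HoxB regions were higher and 1 was lower, out of 19. A region was called where the adjusted p of the quasi-binomial test was under 0.05 and the group means differed by at least 10 percentage points. Over all regions 12% were called higher and 1.88% lower. Against Dnmt3a knockout MEP 10 were higher and 0 lower, with 11.2% and 1.58% of all regions, and against Idh2 mutant MEP 7 were higher and 1 lower, with 10.4% and 3.3% of all regions. These comparisons share the 3 double mutant libraries. The median HoxB difference was 11.9 points against wild type MEP, 14.9 against Dnmt3a knockout MEP and 11.6 against Idh2 mutant MEP, beside 1.34, 0.349 and 0.608 points over all regions. All 3 double mutant libraries lay above all 12 others in 10 of the 19 regions, against 12.7% of all regions, and below them in 1, against 1.77%.

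**Figure D2:**
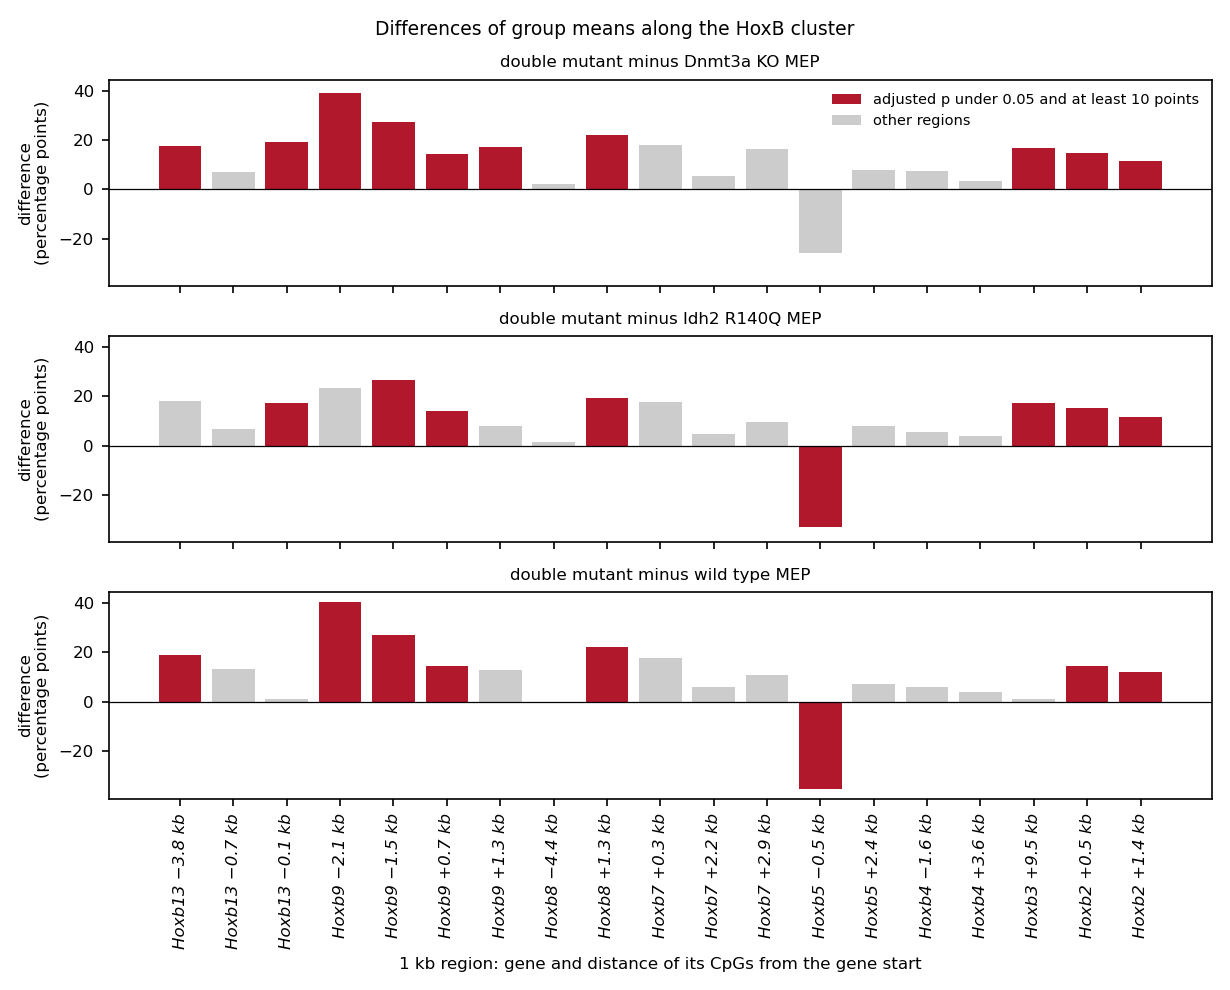
Difference of group means in percentage points for each HoxB region, in 3 panels for double mutant minus Dnmt3a knockout MEP, minus Idh2 mutant MEP and minus wild type MEP; dark bars passed the adjusted p and the 10 point minimum. Hoxb9, Hoxb8 and Hoxb2 carry dark bars above 0 in every panel, and the bar before Hoxb5 points down in every panel.

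Hoxb13 (ENSMUSG00000049604), the most posterior member and a regulator of prostate and tail development, gained methylation in double mutant cells far upstream. The region 3.8 kb before its start stood at 30.1%, 17.1% and 15.1% in double mutant cells, 0.909% and 5.77% in Dnmt3a knockout MEP, 1.28% and 3.85% in Idh2 mutant MEP and 3.33% and 0% in wild type MEP. Every double mutant library lay above every other MEP library. The difference was 19.1 points from wild type MEP (adjusted p 0.00543) and 17.4 from Dnmt3a knockout MEP (adjusted p 0.0199), while 18.2 from Idh2 mutant MEP missed the threshold (adjusted p 0.0522). Without the second wild type MEP library the adjusted p against wild type was 0.0516, and without the first Dnmt3a knockout MEP library it was 0.288 against knockout at a difference of 15. The region 0.7 kb before the start varied within groups, with 16.3%, 32.0% and 6.76% in double mutant cells, against 2.92% and 7.35% in wild type MEP, and passed in none of the comparisons.

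At the Hoxb13 start, 0.1 kb upstream, double mutant libraries lay among the wild type ones and the single mutants were lower. The level was 26.6%, 24.8% and 30.2% in double mutant cells, 7.51% and 8.77% in Dnmt3a knockout MEP, 11.9% and 8.09% in Idh2 mutant MEP and 28.3% and 24.2% in wild type MEP. The double mutant and wild type libraries overlapped and the single mutants stood apart from both. Double mutant cells were 19.1 points above Dnmt3a knockout MEP (adjusted p 0.00448) and 17.2 above Idh2 mutant MEP (adjusted p 0.0111), and differed from wild type MEP by 0.979 points (adjusted p 0.897). Without the first knockout MEP library the adjusted p against knockout was 0.0622, and without the second Idh2 mutant MEP library it was 0.150 against Idh2 mutant MEP.

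Hoxb9 (ENSMUSG00000020875), which patterns the thoracic skeleton, showed the widest spread between groups of all HoxB genes, from upstream into its coding exons. The region 1.5 kb before its start, whose 4 CpGs are in capitals above, was at 24.0%, 25.3% and 33.7% in double mutant cells, 0% and 1.04% in Dnmt3a knockout MEP, 0.730% and 1.16% in Idh2 mutant MEP and 0% and 1.69% in wild type MEP. The 6 GMP libraries were at 0% to 2.08%, so the double mutant libraries stood alone. Differences were 26.8 points from wild type MEP (adjusted p 0.000589), 27.1 from Dnmt3a knockout MEP (adjusted p 6.96e-05) and 26.7 from Idh2 mutant MEP (adjusted p 0.000358). The call held in each of the 3 comparisons whichever library was left out, but with the 10 reads asked only of the libraries compared the difference from wild type MEP was 19.4 points and missed the threshold (adjusted p 0.0572).

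Further upstream, 2.1 kb before Hoxb9, wild type cells already carried methylation and varied. Double mutant cells had 56.7%, 66.3% and 60.5%, Dnmt3a knockout MEP 19.6% and 24.9%, Idh2 mutant MEP 27.1% and 48.2% and wild type MEP 34.0% and 7.35%. All double mutant libraries were higher than all others, but the 2 wild type MEP libraries were far apart. The double mutant was 40.5 points above wild type MEP (adjusted p 0.0113) and 38.9 above Dnmt3a knockout MEP (adjusted p 0.0196), and 23.5 above Idh2 mutant MEP (adjusted p 0.178). Without the second wild type MEP library the difference was 27.2 points (adjusted p 0.0836), and the call against knockout was lost without either knockout library or without the second double mutant library, with adjusted p up to 0.190.

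Within the Hoxb9 gene, the region 0.7 kb after the start, mostly first coding exon, had 11.8%, 14.0% and 18.4% in double mutant cells, 0% and 0.852% in Dnmt3a knockout MEP, 1.33% and 0.248% in Idh2 mutant MEP and 0.370% and 0.586% in wild type MEP. Differences of 14.3, 14.3 and 13.9 points from wild type, Dnmt3a knockout and Idh2 mutant MEP had adjusted p of 0.000238, 0.000469 and 0.00109, and leaving out any library kept them. With reads asked only of the libraries compared, the adjusted p was 0.0534 against Dnmt3a knockout MEP and 0.0706 against Idh2 mutant MEP. The gain was uneven within the exon. The CpG 567 bp after the start was at 50%, 58.1% and 87.5% in double mutant cells against 1.79% and 0% in wild type MEP (adjusted p 0.00803), and the one 576 bp after it at 39.5%, 22.7% and 62.2% against 0% and 0%, whereas the other 4 printed CpGs of that exon averaged under 10% in double mutant cells. All reads of the CpG at 567 bp came from the minus strand. In the intron 1.3 kb after the start the double mutant had 11.4%, 30.2% and 18.1%, and only the difference of 17.3 points from Dnmt3a knockout MEP, at 0% and 5.16%, passed (adjusted p 0.00520), and it did not without the first knockout library (adjusted p 0.0630).

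In the last coding exon of Hoxb9 the CpG 3205 bp after the start, all of whose reads came from the plus strand, differed between double mutant cells and each single mutant. It was at 100%, 90.6% and 88.9% in double mutant cells, 14.3% and 32.1% in Dnmt3a knockout MEP, 40.0% and 23.5% in Idh2 mutant MEP and 51.6% and 62.5% in wild type MEP. Double mutant libraries were highest, and the single mutant libraries lay below the wild type ones, while Dnmt3a knockout and Idh2 mutant libraries overlapped. The double mutant exceeded Dnmt3a knockout MEP by 70.0 points (adjusted p 0.0129) and Idh2 mutant MEP by 61.4 points (adjusted p 0.0293), but the 36.1 points above wild type MEP did not pass (adjusted p 0.0727).

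**Figure D3:**
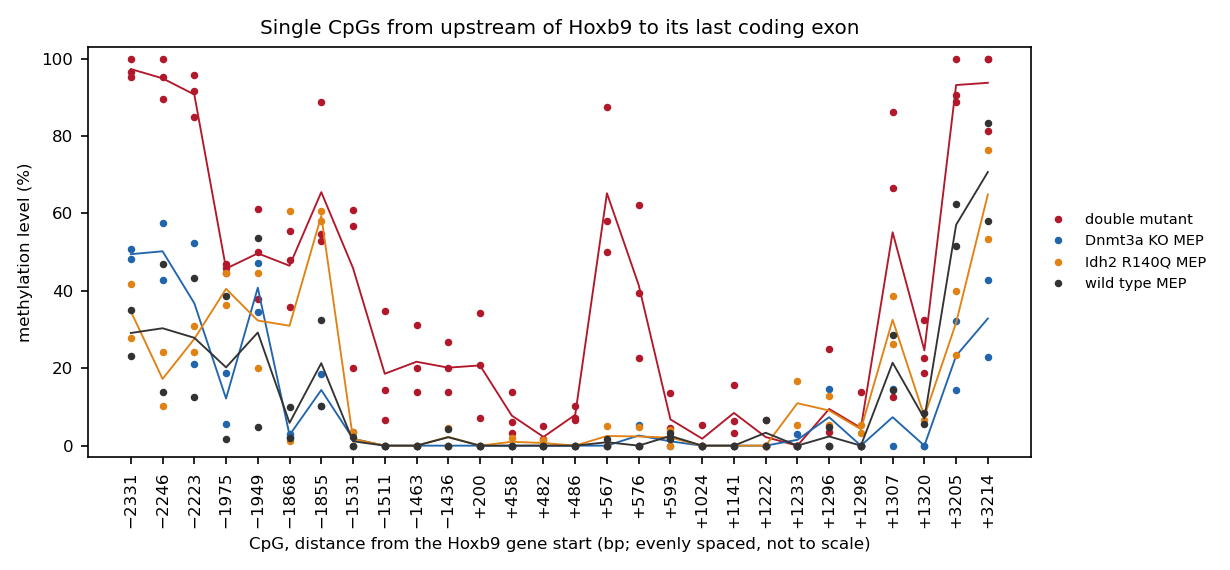
Methylation level in percent of the 28 Hoxb9 CpGs by distance from the gene start, evenly spaced and not to scale, with a point per MEP-gate library and a line through each group mean. The double mutant line lies highest from 2331 bp before the start to 1436 bp before it, peaks again 567 bp after the start and reaches 93.2% in the last coding exon.

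Hoxb8 (ENSMUSG00000056648), whose forced expression blocks myeloid differentiation and can immortalise mouse progenitors, gained methylation in its first coding exon. That exon, 1.3 kb after the start, was at 21.5%, 22.9% and 24.6% in double mutant cells, 0.444% and 1.14% in Dnmt3a knockout MEP, 3.57% and 3.68% in Idh2 mutant MEP and 0.952% and 0.817% in wild type MEP. The double mutant libraries lay close together and above all others. The differences were 22.1 points from wild type MEP (adjusted p 3.13e-05), 22.2 from Dnmt3a knockout MEP (adjusted p 0.000138) and 19.4 from Idh2 mutant MEP (adjusted p 0.000840), and leaving out any library kept all 3 calls. Of the 7 CpGs in the printed 40 bases, the one 1303 bp after the start was highest, at 49.1%, 41.0% and 42.9% in double mutant cells against 0% and 0% in wild type MEP (adjusted p 0.00479). The region 4.4 kb before Hoxb8 stayed near 0, with 0% to 3.92% in double mutant cells, against 1.20% and 4.69% in wild type MEP, and did not pass.

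Hoxb7 (ENSMUSG00000038721), a regulator of cell growth that is overexpressed in several human cancers, was called higher in double mutant cells over the whole gene. None of the 1 kb regions named for Hoxb7 passed, although double mutant cells had the highest group mean in each. The gene with its upstream 5 kb had 12.6%, 17.2% and 16.3% in double mutant cells, 1.41% and 0.974% in Dnmt3a knockout MEP, 2.51% and 5.05% in Idh2 mutant MEP and 2.10% and 2.54% in wild type MEP. It shares 13 of its 21 CpGs with Hoxb8, including the coding exon above, which was called as a region under Hoxb8. The exon shared by Hoxb8 and Hoxb7, 0.3 kb after the Hoxb7 start, was at 10.6%, 8.38% and 34.9% in double mutant cells, against 0.532% and 0% in wild type MEP, a difference of 17.7 points (adjusted p 0.0522), with the third double mutant library far above the other 2. Farther into Hoxb7, 2.2 kb after the start, 6.98% in double mutant cells against 1.24% in wild type MEP had an adjusted p of 0.00991 but was under 10 points.

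Hoxb6 (ENSMUSG00000000690), which is expressed in early myeloid and erythroid cells, had no CpG with 10 reads in all 15 libraries. With reads asked of the double mutant and wild type MEP libraries alone, a region inside the gene, starting at position 96160001, had 7.65% to 11.6% in double mutant cells and 0% in both wild type MEP libraries over 10 CpGs. That difference of 9.11 points had an adjusted p of 0.0459 and was under 10 points. A second region, starting at 96154001, had 1.13% to 4.39% in double mutant cells, against 0% to 1.96% in wild type MEP.

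Hoxb5 (ENSMUSG00000038700), whose expression marks long-term blood stem cells in the mouse, went the other way just upstream of its start. The region 0.5 kb before the gene, in an intron of the antisense gene 0610040B09Rik, was at 44.4%, 50% and 64.3% in double mutant cells, 90% and 67.2% in Dnmt3a knockout MEP, 86.9% and 84.7% in Idh2 mutant MEP and 85.6% and 91.0% in wild type MEP. The 6 GMP libraries were at 66.3% to 94.0%, so the double mutant libraries were the lowest of all 15. The fall was 35.4 points from wild type MEP (difference -35.4, adjusted p 0.00752) and 32.9 from Idh2 mutant MEP (difference -32.9, adjusted p 0.0386), and the difference of -25.7 from Dnmt3a knockout MEP did not pass (adjusted p 0.0947). Without the second wild type MEP library the adjusted p was 0.0653, and against Idh2 mutant MEP 4 of the 5 single-library omissions ended the call, with adjusted p up to 0.176.

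The loss sat on 2 of the 3 CpGs printed for Hoxb5. The CpG 448 bp before the start was at 9.09%, 9.80% and 13.3% in double mutant cells, 88.2% and 64.5% in Dnmt3a knockout MEP, 79.2% and 88.0% in Idh2 mutant MEP and 84.1% and 83.0% in wild type MEP. All double mutant libraries lay at 13.3% or less and all others at 46.8% or more, and the difference passed against wild type (adjusted p 0.00472), Dnmt3a knockout (adjusted p 0.0119) and Idh2 mutant MEP (adjusted p 0.00835). The CpG 422 bp before the start was at 50%, 46.3% and 46.9% against 98.0% and 89.8% in wild type MEP (adjusted p 0.0109). The CpG 535 bp before the start was not called, at 68.5%, 80% and 96.9% in double mutant cells, against 76.9% and 98.5% in wild type MEP. All reads of the CpG at 448 bp came from the minus strand. In the Hoxb5 coding exon 2.4 kb after the start, double mutant cells were higher instead, at 4.02%, 12.8% and 11.9% against 2.06% and 3.08% in wild type MEP, a difference of 6.99 points that did not pass (adjusted p 0.0791).

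**Figure D4:**
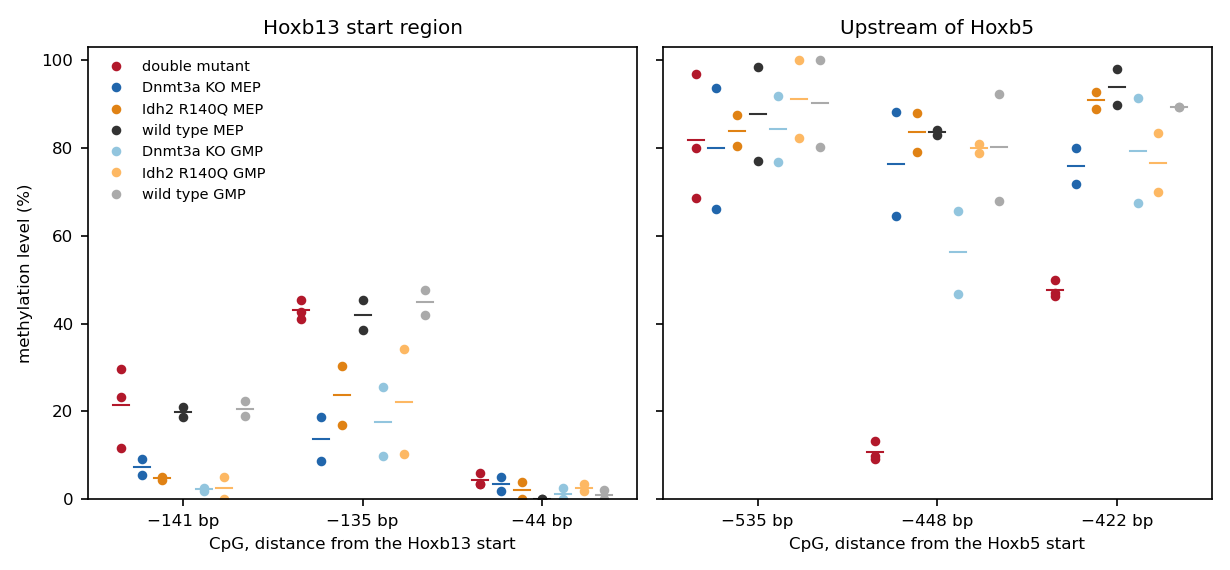
Methylation level in percent of the 3 CpGs at the Hoxb13 start (left) and the 3 CpGs before Hoxb5 (right), by distance from the gene start, with a point per library and a bar at each group mean. At 135 bp before Hoxb13 the Dnmt3a knockout and Idh2 mutant points lie under the double mutant and wild type points, and at 448 bp before Hoxb5 the double mutant points lie at 9.09% to 13.3%, under all others.

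Hoxb4 (ENSMUSG00000038692), which expands blood stem cells when overexpressed, was low in every group and had no region that passed. The coding exon 3.6 kb after its start, with 13 CpGs, had 2.70%, 6.68% and 5.83% in double mutant cells, 1.37% and 1.63% in Dnmt3a knockout MEP, 1.27% and 0.976% in Idh2 mutant MEP and 1.10% and 1.09% in wild type MEP. The double mutant libraries were all higher, with adjusted p of 0.0101, 0.0249 and 0.0243 against wild type, Dnmt3a knockout and Idh2 mutant MEP, but the differences of 3.98, 3.57 and 3.95 points were under the 10 point minimum. The region 1.6 kb before Hoxb4 had 6.36%, 13.6% and 5.71% in double mutant cells, against 2.6% and 2.92% in wild type MEP (adjusted p 0.0988).

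Hoxb3 (ENSMUSG00000048763), a neighbour of Hoxb4 that can drive proliferation of blood precursors when overexpressed, held a highly methylated region, in an intron 9.5 kb after its start. It was at 96.7%, 97.0% and 97.7% in double mutant cells, 77.8% and 82.9% in Dnmt3a knockout MEP, 74.0% and 85.7% in Idh2 mutant MEP and 94.8% and 97.6% in wild type MEP. Double mutant and wild type MEP libraries overlapped, and the single mutant MEP libraries all lay below them. Double mutant cells were 16.8 points above Dnmt3a knockout MEP (adjusted p 0.0171) and 17.2 above Idh2 mutant MEP (adjusted p 0.0129). This region had the fewest reads, 36 to 129 per library, and the call against Dnmt3a knockout was lost in 4 of the 5 single-library omissions, with adjusted p of 0.0421 to 0.0612. Against Idh2 mutant MEP the difference ran from 11.4 to 23.1 points over these omissions, and the call was lost without the first Idh2 mutant MEP library (adjusted p 0.0547). Over both gates the single mutants averaged 84.9% in Dnmt3a knockout cells and 86.6% in Idh2 mutant cells, against 95% in wild type cells, which did not pass (adjusted p 0.174 and 0.13).

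Hoxb2 (ENSMUSG00000075588), which patterns the hindbrain, gained methylation in its coding exons. The region 0.5 kb after its start had 12.7%, 21.2% and 14.7% in double mutant cells, 0.450% and 2.17% in Dnmt3a knockout MEP, 2.00% and 0% in Idh2 mutant MEP and 1.90% and 1.72% in wild type MEP. The differences of 14.4, 14.9 and 15.2 points from wild type, Dnmt3a knockout and Idh2 mutant MEP had adjusted p of 0.00277, 0.00375 and 0.00408. The call against Dnmt3a knockout was lost without the first knockout MEP library (adjusted p 0.0676), and that against Idh2 mutant MEP without the second Idh2 mutant MEP library (adjusted p 0.0719). With reads asked only of the libraries compared, none of the 3 differences passed, with adjusted p of 0.0602, 0.0884 and 0.101. The next region, 1.4 kb after the start and overlapping the antisense gene Hoxb3os, varied widely among double mutant libraries. It was at 9.70%, 23.4% and 3.91% in double mutant cells, against 0.371% and 0.538% in wild type MEP, a difference of 11.9 points (adjusted p 0.0220). It was also called against Dnmt3a knockout MEP, with 11.6 points (adjusted p 0.0427), and against Idh2 mutant MEP, with 11.6 points (adjusted p 0.0393). Each of these 3 calls was lost in 3 of the 5 single-library omissions. Without the second double mutant library the differences were 6.07 to 6.35 points, and without either library of the other group the adjusted p were 0.106 to 0.277.

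Hoxb1 (ENSMUSG00000018973), the anterior end of the cluster and a direct retinoic acid target in the embryonic hindbrain, had 3 CpGs, of which 1 passed. The CpG in its exon, 751 bp after the start, was at 21%, 21.2% and 13.4% in double mutant cells, against 2.44% and 3.65% in wild type MEP (adjusted p 0.0391), while Idh2 mutant MEP was at 7.50% and 19.3%. The CpG 26 bp before the start was at 3.70%, 24.4% and 19.3% in double mutant cells, against 33.3% and 65.9% in wild type MEP, a difference of -33.8 points that did not pass (adjusted p 0.151). With reads asked of the double mutant and wild type MEP libraries alone, the region starting at 96227001 had 30.9% to 42.2% in double mutant cells, against 5.40% to 7.89% in wild type MEP over 5 CpGs (adjusted p 0.0328), in a test that called 4.25% of all regions higher.

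At the level of single CpGs, 10 HoxB CpGs were higher and 2 lower than in wild type MEP, where 3.8% and 0.868% of all CpGs were. Against Dnmt3a knockout MEP 13 were higher and 1 lower, beside 3.26% and 0.669% of all, and against Idh2 mutant MEP 7 and 2, beside 2.79% and 1.24%. In the 6 HoxB promoters with enough CpGs, those of Hoxb9, Hoxb8 and Hoxb2 were higher and that of Hoxb5 lower than in wild type MEP, where 11.3% of all promoters were higher and 0.532% lower. The same 3 and Hoxb13 were higher than in Dnmt3a knockout MEP, beside 13.5% of all promoters, with 0 lower, beside 0.814%. They were also higher than in Idh2 mutant MEP, beside 11% of all, where Hoxb5 was again lower, beside 1.63%. These promoter results are not separate measurements. The promoters of Hoxb8, Hoxb2 and Hoxb5 hold the same CpGs as the regions called above, and that of Hoxb9 mostly so. The measured promoter CpGs of Hoxb9, Hoxb8 and Hoxb2 all lay after the gene start, almost all in coding exons.

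By whole gene with 5 kb upstream, Hoxb9, Hoxb8, Hoxb7 and Hoxb2 were higher in double mutant cells than in wild type MEP, 4 of 9 genes, against 9.79% of all genes. Hoxb9 averaged 37.9% ± 4.55 in double mutant cells, against 11.1% ± 6.78 in wild type MEP, Hoxb8 18.6% ± 1.94 and 2.08%, Hoxb7 15.4% ± 2.43 and 2.32% ± 0.314, and Hoxb2 13.9% ± 7.81 and 1.59% ± 0.160. Adjusted p were 0.00149, 5.06e-05, 7.29e-05 and 0.00832. The same 4 genes and Hoxb13 were higher than in Dnmt3a knockout MEP, against 18.3% of all genes, and than in Idh2 mutant MEP, against 11.5% of all genes. The Hoxb2 difference was 7.95 to 8.41 points without the second double mutant library, below the minimum in each comparison, and its call was also lost without either wild type MEP library (adjusted p 0.0867 and 0.0749), the first Dnmt3a knockout MEP library (0.0967) or the second Idh2 mutant MEP library (0.156). Against Idh2 mutant MEP, the Hoxb9 call was lost without either Idh2 mutant MEP library (adjusted p 0.0896 and 0.0567) and that of Hoxb13 without the second (0.0833). With a minimum of 20 reads the Hoxb7 differences were 7.69, 8.44 and 5.95 points from wild type, Dnmt3a knockout and Idh2 mutant MEP (adjusted p 0.0525, 0.0399 and 0.359), so that none was called, and the Hoxb9 difference from Idh2 mutant MEP had an adjusted p of 0.0587.

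Ordered by level, double mutant cells had the highest group mean at 7 of the 9 genes, and at Hoxb13, Hoxb9, Hoxb8, Hoxb7, Hoxb4 and Hoxb2 all 3 libraries lay above the 12 others, a separation found for 13.7% of all genes. At Hoxb3 double mutant cells averaged 22.3% ± 3.56 and overlapped other groups. At Hoxb5 they averaged 23.7% ± 8.10, against 28.4% ± 2.07 in wild type MEP, and at Hoxb1 32.4% ± 4.40, against 43.4% ± 4.20 in Idh2 mutant MEP and 30.6% ± 1.90 in wild type MEP, and neither gene passed in any comparison. Below the double mutant, the other 12 libraries lay at 5.2% or lower at Hoxb8, Hoxb7, Hoxb4 and Hoxb2. At Hoxb8 Dnmt3a knockout GMP, at 4.82% and 5.2%, came next. At Hoxb4 the 4 Idh2 mutant libraries were at 1.44% to 1.79% and the 8 knockout and wild type ones at 0% to 1.43%. There the Idh2 mutant difference from wild type over both gates, 0.388 points, did not pass in the quasi-binomial test (adjusted p 0.626). The Hoxb4 levels of the Idh2 mutant libraries lay within the 0.280% to 3.27% counted as methylated on mitochondrial CpGs over all libraries.

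**Figure D5:**
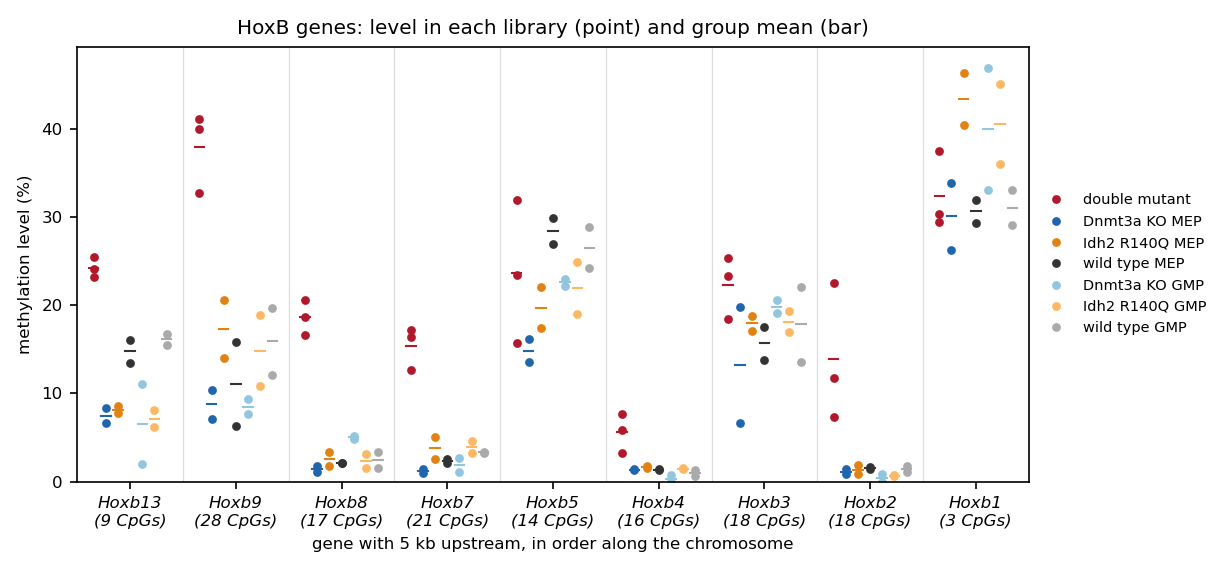
Methylation level in percent of each HoxB gene with 5 kb upstream, with a point per library and a bar at each group mean, in order along the chromosome. Double mutant points lie above all others at Hoxb13, Hoxb9, Hoxb8, Hoxb7, Hoxb4 and Hoxb2 and among them at Hoxb5, Hoxb3 and Hoxb1.

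Of the single mutants, each differed from wild type in 1 of the 19 regions, the Hoxb13 start, with both gates entered. Dnmt3a knockout cells were at 7.51% and 8.77% in MEP and 3.75% and 11.3% in GMP, Idh2 mutant cells at 11.9% and 8.09% in MEP and 4.63% and 12.9% in GMP, and wild type cells at 28.3% and 24.2% in MEP and 27.6% and 26.2% in GMP. No single mutant library reached the lowest wild type library. The mean was 7.82% ± 3.13 in Dnmt3a knockout cells and 26.6% ± 1.79 in wild type cells (difference -18.7 points, adjusted p 0.00817), in a comparison that called 0.663% of all regions lower. In Idh2 mutant cells it was 9.37% ± 3.77, against the same wild type libraries (difference -17.2 points, adjusted p 0.00912), where 0.533% of all regions were called lower. In limma the adjusted p were 0.0812 for Dnmt3a knockout and 0.0593 for Idh2 mutant, and with 1 gate at a time they were 0.0754 to 0.133. With reads asked only of the libraries compared, the Dnmt3a knockout difference was -9.53 points (adjusted p 0.189) and the Idh2 mutant one -17.6 points (adjusted p 0.0537).

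The Hoxb13 difference sat on the pair of CpGs 141 and 135 bp before the start. The CpG at 135 bp was at 8.77% and 18.6% in Dnmt3a knockout MEP, 30.2% and 17.0% in Idh2 mutant MEP and 45.3% and 38.6% in wild type MEP, with double mutant cells at 42.7%, 45.4% and 41.0%. The CpG 44 bp before the start was at 0% to 6.00% in every library. The CpG at 141 bp had 108 to 128 reads in double mutant and 122 to 156 in wild type libraries, against 22 to 55 in single mutant libraries. The parts of this depth and of the difference in X and Y reads in these values were not tested.

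No HoxB gene as a whole and no single HoxB CpG passed in Dnmt3a knockout against wild type, where 4.5% of genes and 0.0157% of CpGs were called, nor in Idh2 mutant against wild type, where 6.2% and 0.147% were called. Across the whole Hoxb13 gene unit the single mutants were lower by less than 10 points, with differences of -8.45 for Dnmt3a knockout (adjusted p 0.0337) and -7.80 for Idh2 mutant (adjusted p 0.0424). With a minimum of 20 reads they were -13.8 (adjusted p 0.0319) and -14.1 points (adjusted p 0.0224) and both were called, as was Dnmt3a knockout without its second GMP library (-10.7 points, adjusted p 0.0164). With each CpG weighted equally they were -3.45 and -3.04 points. In the Hoxb13 promoter, within 1 kb of the start, Idh2 mutant cells averaged 9.41% ± 1.59 and wild type cells 21.2% ± 1.07 (adjusted p 0.0436), where 0.523% of all promoters were called lower. Below the threshold but without overlap, a CpG in the untranslated exon of Hoxb2, 2937 bp after its start, was at 2.38% and 7.69% in Dnmt3a knockout MEP, 6.67% and 16.3% in Idh2 mutant MEP and 36.8% and 25.0% in wild type MEP (adjusted p 0.172 and 0.257 over both gates). The Hoxb9 exon CpG at 3205 bp had the same order, with a mean of 18.1% in Dnmt3a knockout cells, 30.1% in Idh2 mutant cells and 65.8% in wild type cells (adjusted p 0.224 and 0.323).

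Between MEP and GMP, over wild type, Dnmt3a knockout and Idh2 mutant cells together, 0 of the 19 HoxB regions passed in the quasi-binomial test, where 0.349% of all regions were called. In limma 0 passed as well, where 0.164% of all regions passed. An unadjusted limma p under 0.05 was found for 2 HoxB regions and for 2016 of all 29251 regions. The largest differences were at Hoxb3 9.5 kb after the start, with 85.5% ± 9.29 in MEP and 92.2% ± 4.71 in GMP (adjusted p 0.557), at Hoxb7 2.9 kb after the start, with 6.59% ± 4.80 and 9.42% ± 5.87, and at Hoxb7 0.3 kb after the start, with 0.215% ± 0.341 and 3.02% ± 5.67.

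Whether the double mutant differed from the sum of the single mutants was tested in the MEP-gate libraries with limma, on log2 of methylated over unmethylated reads with 1 added to each. In 4 of the 19 HoxB regions it did, all upward, in a test that called 4.7% of all regions. They were the Hoxb13 start (3.62 ± 0.836 SE, adjusted p 0.0305), Hoxb9 1.5 kb upstream (5.54 ± 1.12, adjusted p 0.0190), the Hoxb3 intron (5.05 ± 1.04, adjusted p 0.0200) and the Hoxb2 coding exon 0.5 kb after the start (4.65 ± 1.12, adjusted p 0.0362). At the Hoxb13 start and in the Hoxb3 intron this rests on single mutants below wild type and a double mutant level like wild type, and at Hoxb9 and Hoxb2 on a double mutant level above all other groups. The calls were fragile, with 0 of the 4 left without the first Dnmt3a knockout MEP library or without the second wild type MEP library, and 0 when the replicate number was fitted as a block.

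Regions were also set beside others of the same starting level. Among the 15 HoxB regions under 10% in wild type MEP, 6 were higher in double mutant cells, against 13.8% of all 14255 such regions, and the median difference was 13.0 points against 0.276. The other Hox clusters also had regions called higher than in wild type MEP, with 7 of 28 regions at HoxA, 6 of 18 at HoxC and 18 of 25 at HoxD, beside 7 of 19 at HoxB. Median differences were 5.89 points at HoxA, 12 at HoxC and 17.5 at HoxD, beside 11.9 at HoxB, and the differences between clusters were not tested. The 8 HoxB regions called between double mutant cells and wild type MEP held 22 to 82 CpGs in their 1 kb of sequence at 48.8% to 66.8% GC, and the other 11 held 20 to 67 CpGs at 51.1% to 63.7% GC, so the 2 sets overlapped in base composition.

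Other genes that act with or on Hox genes were counted by promoter, beside the same shares of all promoters as for the HoxB promoters. Of 14 Polycomb genes, the repressors that keep Hox clusters silent, all 14 were tested and 0 passed in any of the 6 comparisons, with a median difference of -0.0339 points between double mutant cells and wild type MEP. Of 9 Hox cofactor genes 6 were tested and 0 passed against wild type MEP, and Pbx2, a DNA-binding partner of Hox proteins, was at 52.7% in double mutant cells and 35.2% in Dnmt3a knockout MEP (adjusted p 0.0328). Of 14 activators of Hox genes 11 were tested. Cdx2, a caudal-type activator of Hox genes, was at 12.1% in double mutant cells, against 2.06% in wild type MEP (adjusted p 0.000154). Its relative Cdx1 was at 6.6% in double mutant cells, 46.2% in Idh2 mutant MEP and 26.2% in wild type MEP (adjusted p 4.4e-05 against Idh2 mutant and 0.00057 against wild type), and over both gates at 5.98% in Dnmt3a knockout cells, 50.3% in Idh2 mutant cells and 26.1% in wild type cells (adjusted p 0.00348 for knockout and 0.00694 for Idh2 mutant), where 0.623% of promoters were called lower in knockout and 1.3% higher in Idh2 mutant cells. Wbp7, a histone methyltransferase gene also called Kmt2b, was at 11.9% in double mutant cells and 22% in Idh2 mutant MEP (adjusted p 0.0234), and over both gates at 24.3% in Idh2 mutant cells, against 12.1% in wild type cells (adjusted p 0.0194).

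Retinoic acid induces HoxB genes in the embryo, and 7 of 8 retinoid genes were tested. Aldh1a2, which makes retinoic acid, was at 24.6% in double mutant cells, against 5.90% in wild type MEP (adjusted p 0.000435), and the receptor gene Rara at 12.9% and 2.17% (adjusted p 2.57e-05). Against Dnmt3a knockout MEP these 2 and Rxra passed, the last with 15.6% in double mutant cells and 2.45% in knockout, and against Idh2 mutant MEP Aldh1a2 was higher and Rarg lower, at 1.65% in double mutant cells and 12.6% in Idh2 mutant MEP. Marker promoters of the cells the gates could hold were sparsely covered. Of 9 granulocyte-macrophage genes 2 were tested and 0 passed in any comparison, and of 4 mature myeloid genes 0 were tested. Of 9 megakaryocyte-erythroid genes 3 were tested, of which Itga2b, a platelet integrin, was at 32.2% in double mutant cells, against 17.6% in wild type MEP (adjusted p 0.00245). Of 5 stem cell genes 4 were tested and Hlf was at 38.1% in Idh2 mutant cells and 22% in wild type cells (adjusted p 0.0277). Of 6 lymphoid genes only Vpreb1 was tested, and it was called lower in double mutant cells, at 6.79%, than in Dnmt3a knockout MEP, at 18.4%. Vpreb1 was also called lower than in Idh2 mutant MEP (difference -14.0 points), and higher in Idh2 mutant than in wild type cells over both gates (18.7 points). The part of cell makeup in the HoxB differences was not tested.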

How the data were processed

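The deposited files give, per library, counts of methylated reads and of all reads at each cytosine of a CpG, which the authors made with BSMAP 2.74 on mm9, per the submitters' processing notes. The deposited methylation fraction equals their ratio and was not used further. The sources used here do not state whether duplicates were removed or how complete conversion was. PCR duplicates cannot be told from separate molecules, so intervals and floors cover counting error only.

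Strands were added. CpGs reaching 10 reads in each of the 15 libraries entered, grouped into 1 kb regions, genes with 5 kb upstream (gencode vM1 on NCBIM37) and promoters within 1 kb of a start, each with at least 3 CpGs. A level is methylated over all reads. A quasi-binomial model of the counts with 1 mean per group (7 groups, 8 residual degrees of freedom, dispersion squeezed across features and at least 1) gave a score test per comparison, with Benjamini-Hochberg adjustment over all features of a family. The test was also run on simulated reads, drawn independently for each library, with the outcome not given here. That simulation held no effect of depth or sex on the level, so it does not bear on the library differences given above. The interaction and an alternative test used limma 3.58.1 in R 4.3.3, and the rest used matplotlib 3.10.9, pandas 2.3.3, scipy 1.17.1 and numpy 2.4.6 in Python 3.11.15. Named were all HoxB genes, every called HoxB region, the 3 largest differences per comparison and called promoters of the gene lists; single CpGs, and regions outside the 19, were picked for description after their values were seen. Members and lists were chosen with earlier results of these data known. Alternatives were a minimum of 20 reads, reads of the compared libraries only, 500 bp windows, limma, no minimum difference, a replicate block, each gate alone, summed gates, each library left out, equal weight per CpG and promoters alone. Titles of the wild type and Dnmt3a knockout libraries carry the word GFP, which is not explained there. One gene unit that the rule on alike patterns picked is not reported here.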

Additional observations from a re-analysis of the deposited data

Results flagged for a closer look

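In 4 of the 19 HoxB regions, beside 4.7% of all regions, the effect of Idh2 R140Q differed between cells without and with Dnmt3a. This was tested by the limma interaction in the MEP-gate libraries and is given as a difference of log2 ratios. At the Hoxb13 start it was 3.62, where adding Idh2 R140Q went with a level of 27.2% in double mutant cells against 8.14% in Dnmt3a knockout MEP, and with 10% in Idh2 mutant MEP against 26.2% in wild type MEP. Hoxb9 1.5 kb upstream gave 5.54, with 27.6% in double mutant cells against 0.521% in Dnmt3a knockout MEP, and 0.946% in Idh2 mutant MEP against 0.847% in wild type MEP. The Hoxb3 intron gave 5.05, with 97.1% in double mutant cells against 80.4% in Dnmt3a knockout MEP, and 79.9% in Idh2 mutant MEP against 96.2% in wild type MEP. Hoxb2 0.5 kb after the start gave 4.65, with 16.2% in double mutant cells against 1.31% in Dnmt3a knockout MEP, and 1.00% in Idh2 mutant MEP against 1.81% in wild type MEP. With the replicate block, without the first Dnmt3a knockout MEP library or without the second wild type MEP library, 0 of these 4 calls were left. The Idh2 mutant libraries lack Mx1-cre and the double mutant cells were malignant. Wild type libraries differed from all others in X and Y reads, and double mutant and wild type libraries held more reads than single mutant ones. None of these can be told apart from the interaction. No group had 4 or more libraries, so single outlying libraries were not tested for.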

How the results depend on the processing

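HoxB regions called in the double mutant against wild type, Dnmt3a knockout and Idh2 mutant MEP numbered 8, 10 and 8. With a minimum of 20 reads, which left 7 HoxB regions, they were 2, 4 and 2. With reads asked only of the libraries compared, which leaves fewer libraries for the dispersion, 7 of 32, 7 of 23 and 4 of 22 were called, 3, 5 and 3 of them shared with those reported, and over all regions the counts were 3386, 1951 and 1805 against 4059, 3728 and 4006. Beside the losses given with the results, that setting ended the calls of Hoxb9 2.1 kb upstream (adjusted p 0.105) and Hoxb5 0.5 kb upstream (0.0556) against wild type, of Hoxb9 1.3 kb after the start (0.147) and the Hoxb3 intron (0.0637) against Dnmt3a knockout, of Hoxb5 0.5 kb upstream (0.0889) and the Hoxb3 intron (0.158) against Idh2 mutant, and of Hoxb2 1.4 kb after the start in all 3 (0.182 to 0.280). Leaving out 1 library gave 4 to 10, 3 to 10 and 4 to 8, lowest without the second wild type, the first Dnmt3a knockout and the second Idh2 mutant MEP library. For Dnmt3a knockout and for Idh2 mutant against wild type the 1 region became 0 with compared libraries only, 500 bp windows, limma, GMP alone or MEP alone, for which the cause was not tested, and stayed 1 whichever library was left out (1 to 1). MEP against GMP was 0 to 0. The interaction count of 4 was 0 to 6 without a library and 6 on levels in percent. Labels state no shared animal behind equal replicate numbers, and deviations of equal-numbered MEP and GMP libraries correlated at 0.0187 (Dnmt3a knockout), 0.294 (Idh2 mutant) and 0.141 (wild type). With 2 libraries per group, the 2 pairs of a genotype give the same value by construction. The replicate block gave 9, 9, 7, 1, 1 and 0 regions and 0 for the interaction (chosen after the data were seen, as were its other alternatives), where 12 HoxB regions had an unadjusted p under 0.05. Without the block 13 HoxB regions had such a p in the interaction, beside 5820 of all 29251 regions. Under the block the double mutant against Dnmt3a knockout lost Hoxb9 2.1 kb upstream and the Hoxb3 intron, and against Idh2 mutant the Hoxb3 intron. In limma the double mutant against Dnmt3a knockout lost Hoxb13 3.8 kb upstream (adjusted p 0.0625) and Hoxb9 2.1 kb upstream (0.0509). Against Idh2 mutant, limma lost the Hoxb13 start (0.0666) and Hoxb5 0.5 kb upstream (0.0574). Of 276 alternative values for called regions 62 lost the call, 214 kept it and 0 reversed. The Hoxb7 gene lost its call with promoters alone and at 20 reads. Depth limits Hoxb6, with 0 CpGs, and Hoxb1, with 3.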

Other observations

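Outside the cluster, the gene units whose 7 group means followed those of Hoxb9 most closely included Pax1, D14Abb1e, Foxl1 and BC006965, with Pearson r of 0.990 to 0.992 over 7 group means, given as a description. Pax1, a paired-box regulator of the axial skeleton, averaged 45.1% in double mutant cells, against 12.7% in wild type MEP. Of 3995 candidate gene units 276 had r over 0.95, so the pattern was common. With reads asked only of double mutant and wild type MEP libraries, 7 of 32 HoxB regions were called higher, beside 4.25% of all regions. Among them were 2 stretches outside the 19 regions, picked for description after their values were seen. The one starting at 96132001, around the Hoxb9 start, had 12.5% to 16.7% in double mutant cells, against 0.199% to 0.629% in wild type MEP over 12 CpGs (adjusted p 0.0313). The one starting at 96202001, in Hoxb3, had 25.0% to 40.0% in double mutant cells, against 0% to 1.82% in wild type MEP over 5 CpGs (adjusted p 0.0415).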
